A study of Mus musculus with 33 samples.

Results

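Binding of p53 was examined around 5 genes that answer metabolic and other stress, Sesn1, Sesn2, Trp53inp1, Ddit4 and Gdf15, in lists of p53 ChIP-seq peaks from mouse B cell lymphomas. All peaks that overlapped a fixed mm9 window around each gene were taken. The windows were chromosome 10 from 41480000 to 41650000 for Sesn1, chromosome 4 from 132030000 to 132090000 for Sesn2, chromosome 4 from 11070000 to 11120000 for Trp53inp1, chromosome 10 from 59390000 to 59440000 for Ddit4, and chromosome 8 from 73130000 to 73180000 for Gdf15. They held 250 of the 102916 peaks in the 26 lists. Where peaks of any lists shared at least 1 bp they were merged into 1 site, which gave 24 sites in the windows of 18927 in all, 3 at Sesn1, 4 at Sesn2, 6 at Trp53inp1, 5 at Ddit4 and 6 at Gdf15. Sites are numbered along the chromosome within each window.

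Every tumour arose in an Eµ-myc mouse of the C57/Bl6 background, in which a Myc transgene is driven in B cells, and the cells came from lymph nodes without further purification, so other lymph node cells may be included. In tumours 1 to 4 one Trp53 allele was a knock-in (KI) and the other was deleted. Their cells received 100 nM OHT (4-hydroxytamoxifen), which restores p53 function, or EtOH at 1 volume per 1000, for 2 h. Tumours 5 to 7 were Arf-/- with both Trp53 alleles wild type (Arf tumours). For 3 h their cells received 1 µM doxorubicin, which damages DNA, with H2O at 1 volume per 1000 as its solvent, or 5 µM (-)-Nutlin, which blocks Mdm2, with 5 µM (+)-Nutlin, its mirror image, and DMSO at 0.5 volumes per 1000 as references. A further sample of each was untreated. Each treatment of each tumour gave 1 list, so groups hold 4 lists in KI and 3 in Arf tumours. KI and Arf tumours differ in genotype, treatment and time together.

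The p53 protein is a transcription factor that stress stabilises, and its target genes act on metabolism and growth as well as on the cell cycle and cell death. Sesn1 and Sesn2 encode sestrins, stress-induced proteins that restrain the growth kinase complex mTORC1. Ddit4 encodes REDD1, another inhibitor of mTORC1. Trp53inp1 encodes a p53-induced protein of the nucleus and of autophagosomes, and Gdf15 encodes a secreted stress cytokine of the TGF-beta superfamily.

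Start-site sequences of these genes are shown because p53 recognises a pair of copies of a half-site. RefSeq promoters of GRCm38.p6 (300 bases, 250 before the start and 50 after) were matched for 4 of the 5 genes, 6 promoters in all. Capitals mark the 10 letters nearest to the p53 half-site consensus, searched on both strands. Both Sesn1 starts, on the plus strand, and the Ddit4 start, on the minus strand, are given.
Sesn1 first start, chr10:41810324-41810623: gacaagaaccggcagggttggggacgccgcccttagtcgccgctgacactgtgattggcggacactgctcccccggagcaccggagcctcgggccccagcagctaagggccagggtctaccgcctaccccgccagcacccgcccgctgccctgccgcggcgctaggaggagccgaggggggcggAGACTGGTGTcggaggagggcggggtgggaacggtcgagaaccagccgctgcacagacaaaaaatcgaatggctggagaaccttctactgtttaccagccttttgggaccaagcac
Sesn1 second start, chr10:41887189-41887488: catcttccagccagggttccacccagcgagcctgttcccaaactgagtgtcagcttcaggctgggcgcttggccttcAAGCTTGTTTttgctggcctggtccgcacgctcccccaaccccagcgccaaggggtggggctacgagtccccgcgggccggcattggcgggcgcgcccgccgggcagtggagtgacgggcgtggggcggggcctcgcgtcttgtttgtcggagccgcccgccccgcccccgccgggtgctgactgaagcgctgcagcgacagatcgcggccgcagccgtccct
Ddit4 start, chr10:59951721-59952020: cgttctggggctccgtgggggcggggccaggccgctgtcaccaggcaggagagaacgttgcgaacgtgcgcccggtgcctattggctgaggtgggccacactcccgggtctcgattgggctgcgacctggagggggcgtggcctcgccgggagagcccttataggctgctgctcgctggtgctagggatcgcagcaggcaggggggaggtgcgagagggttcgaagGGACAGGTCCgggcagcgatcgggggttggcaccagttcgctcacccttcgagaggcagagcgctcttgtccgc
The second Sesn1 start held an exact half-site, AAGCTTGTTT, as did 8.36% of 32851 mouse promoters. The Ddit4 stretch, GGACAGGTCC, had 1 mismatch, and 50.9% of promoters matched at least that well. In the first Sesn1 promoter, the Sesn2 promoter and both Gdf15 promoters the nearest stretch had 2 mismatches, a level that 93.0% of promoters reached. These GRCm38.p6 positions cannot be set beside the mm9 peaks, and a match of letters is not a binding site.

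Among protein-coding genes of GRCm38.p6 the nearest neighbours were Cep57l1 and Armc2 for Sesn1, Med18 and Atpif1 for Sesn2, Ndufaf6 and Ccne2 for Trp53inp1, Dnajb12 and Anapc16 for Ddit4, and Lrrc25 and Pgpep1 for Gdf15. No mm9 annotation was used here, so a site is given by its position and was not assigned to a promoter, an exon, an intron or a neighbouring gene.

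The deposited lists carry no score, so a site was described by whether a peak was present and by the base pairs that peaks covered. Lists held 3597 to 10084 peaks after OHT, 116 to 742 after EtOH, 8250 to 11346 after doxorubicin, 5617 to 10674 after (-)-Nutlin and 707 to 2696 in the other Arf groups. Peak width split them into 2 kinds, 12 narrow lists with a minimum of 52 to 54 bp and a median of 68.0 to 111 bp, and 14 wide lists with a minimum of 278 to 391 bp and a median of 417 to 552 bp. Every OHT, doxorubicin and (-)-Nutlin list and every list of tumour 5 was of the wide kind, and all others were narrow. Outside tumour 5, the kind of list therefore cannot be told apart from the treatment, and the tumour 5 values are given beside the others for that reason.

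Each of the 10 OHT, doxorubicin and (-)-Nutlin lists, called activated here, had peaks at 13 to 19 of the 24 sites. EtOH lists had peaks at 0 to 2, H2O lists at 3 to 9, (+)-Nutlin lists at 2 to 10, DMSO lists at 2 to 8 and untreated lists at 5 to 8. The activated lists also held more peaks over the genome, and no share over all sites was computed for these counts. Such counts per list therefore cannot be read as particular to these loci. All 10 activated lists had a peak at 6 of the 24 sites, against 5.76% of all sites. These were Sesn2 site 3, Trp53inp1 sites 3 and 4, Ddit4 site 2 and Gdf15 sites 4 and 6. At 12 of the 24 sites at least 1 of the 16 other lists also had a peak, against 22.7% of all sites, and at 4 of 24, Sesn2 site 3, Trp53inp1 site 3, Ddit4 site 2 and Gdf15 site 6, at least 8 of the 16 did, against 3.3% of all sites. No site in the windows was in all 10 activated lists and in none of the 16 (0.861% of all sites were).

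**Figure D1:**
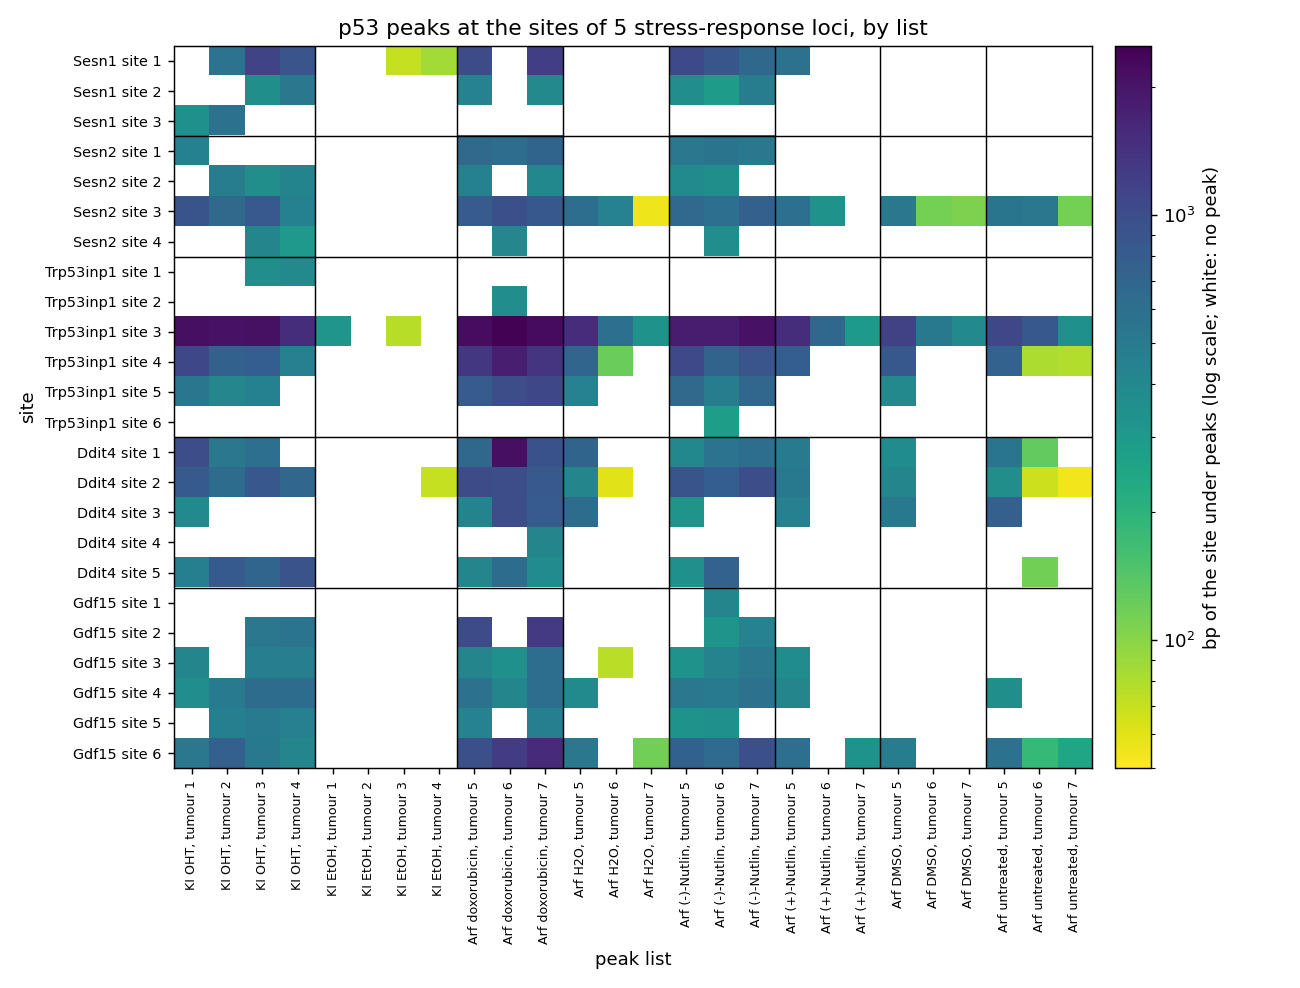
Base pairs covered by p53 peaks at each of the 24 sites (rows) in each of the 26 lists (columns, activated groups to the left of their references). Trp53inp1 site 3 is filled in 24 of 26 columns and the EtOH columns are nearly empty.

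Restored p53 was compared with solvent in KI tumours. After OHT, sites of all 5 windows were bound, and few had a peak with EtOH. The EtOH lists were short, with 116 to 742 peaks each over the genome. At 3 of the 24 window sites any EtOH list had a peak, against 4.74% of all sites. A site was called gained when every OHT list and no EtOH list had a peak. By this rule 5 of the 20 window sites present in either group were gained, Sesn2 site 3, Trp53inp1 site 4, Ddit4 site 5 and Gdf15 sites 4 and 6, against 9.39% of all sites, and 0 were lost. At 7 of the 20 sites the least covered OHT list still exceeded the most covered EtOH list, against 12.8% of all sites. Fisher's exact test per site, with Benjamini-Hochberg adjustment across all sites with a peak in either group, called 0 sites (0.0%). The lowest adjusted p in the windows was 0.304. The smallest unadjusted p that 4 against 4 lists can give is 0.0286, and the adjusted test can pass only if most sites reach it. The 0 calls therefore do not show an absence of change. The 5 window sites with an unadjusted p under 0.05 were the 5 gained sites again, as were 1194 of 12710 sites in all (9.39%).

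Covered length per window was higher in all 4 OHT lists than in all 4 EtOH lists at all 5 loci. The mean at Trp53inp1 was 3244 ± 661 bp after OHT and 99 ± 152 bp after EtOH (SD, n = 4 each). It was 2095 ± 433 against 18 ± 35 bp at Ddit4, and 1094 ± 516 against 39 ± 46 bp at Sesn1. OHT lists averaged 2042 ± 646 bp at Gdf15 and 1316 ± 222 bp at Sesn2, where no EtOH list had a peak. The two-sided exact permutation test over libraries gave p = 0.0286 at each locus, the smallest that 4 against 4 lists can give, and 19.7% of 50 kb tiles of the genome that held a peak separated the groups in this way. The Sesn1 and Sesn2 windows, of 170001 and 60001 bp, are longer than a tile, so that share is not like for like there, above all at Sesn1. With permutation within tumours each p was 0.125, again the smallest possible. The call was lost at Sesn1 with only peaks of at least 457 bp (840 bp, exact permutation p = 0.143) or with peaks reset to 200 bp (300 bp, exact permutation p = 0.0857). At Sesn2 it was lost with peaks of at least 457 bp (715 bp) or with OHT lists reduced to their widest peaks (826 bp), each with an exact permutation p of 0.143.

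For more lists per group, the 6 of Arf tumours after doxorubicin or (-)-Nutlin were pooled and set against the 12 other lists. Fisher's exact test, adjusted over all sites, called 10 of 22 window sites more often bound in the joined lists, against 34.7% of all sites, and 0 less often (0.0176% of all sites). By the rule for gain 1 site, Sesn2 site 1, was called (4.3% of all sites). The 10 sites called by Fisher's exact test were Sesn1 sites 1 and 2, Sesn2 sites 1 and 2, Trp53inp1 site 5, Ddit4 site 5 and Gdf15 sites 2 to 5. Their adjusted p lay between 0.00125 at Sesn2 site 1 and 0.0288 at Gdf15 site 4. Without tumour 5 the count was 3, without tumour 6 it was 2 and without tumour 7 it was 1, with 11.3%, 14.4% and 7.78% of all sites called in those subsets. Covered length was higher in the joined lists at every locus, and the two-sided exact permutation test gave p = 5.39e-05, its minimum, at Sesn2, Trp53inp1 and Gdf15, p = 0.000162 at Ddit4 and p = 0.0007 at Sesn1. Both tests took the lists as independent, although they came from 3 tumours with several lists each. Exact permutation within tumours gave p = 0.000296, its minimum, at Sesn2, Trp53inp1, Ddit4 and Gdf15, and p = 0.00148 at Sesn1. Groups did not overlap at Sesn2, Trp53inp1 and Gdf15, as in 17.8% of tiles, nor at 6 of the 22 sites, against 10.3% of all sites. With every peak reset to 200 bp the Trp53inp1 difference was 183 bp, against 3071 bp as deposited, and its call was lost.

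**Figure D2:**
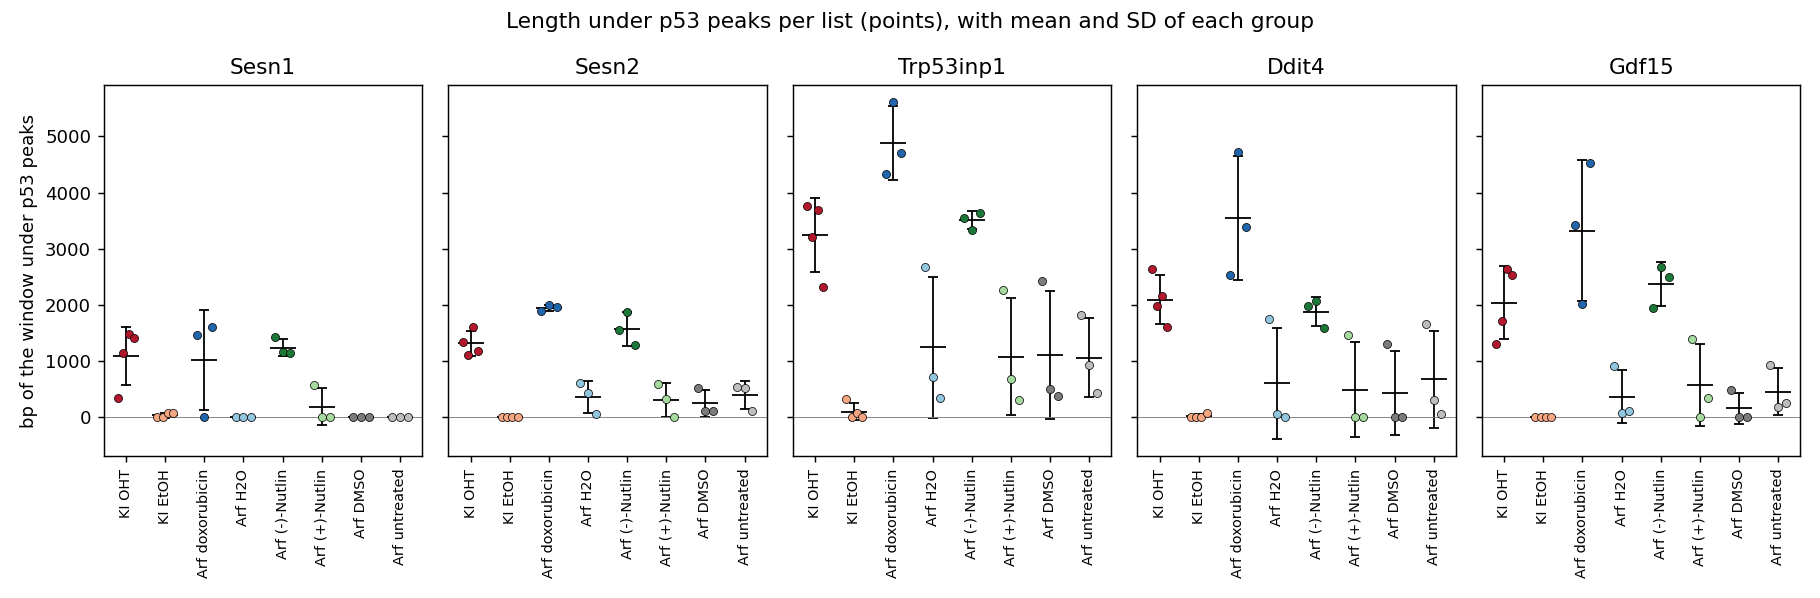
Covered base pairs in each of the 5 windows by group (points, single lists; bar, mean; whiskers, SD). OHT, doxorubicin and (-)-Nutlin lists stand above their references, except that the doxorubicin list of tumour 6 is at 0 at Sesn1.

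The sestrin loci differed in how often they were bound without activation. Sesn1 had 3 sites. Site 1, at 41529252 to 41530567, covered 566, 1120 and 885 bp in the OHT lists of tumours 2, 3 and 4 and nothing in that of tumour 1, against 71 and 86 bp in the EtOH lists of tumours 3 and 4. In Arf tumours it covered 1023 and 1212 bp after doxorubicin in tumours 5 and 7, and 1056, 874 and 668 bp after (-)-Nutlin in tumours 5, 6 and 7. Among the references its single peak was that of tumour 5 with (+)-Nutlin, of 579 bp. Site 1 thus had a peak in 8 of 10 activated lists and in 3 of the 16 others.

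Sesn1 site 2 lay 76.4 kb further along, at 41606972 to 41607572, and was in 7 activated lists and in none of the 16 others. Its peaks were 356 and 521 bp in OHT tumours 3 and 4, 442 and 396 bp in doxorubicin tumours 5 and 7, and 366, 289 and 475 bp in (-)-Nutlin tumours 5, 6 and 7. Site 3 was in 2 lists, those of OHT tumours 1 and 2, which lacked site 2. Doxorubicin tumour 6 had no Sesn1 peak, although its list held 8250 peaks. Of the 12 window sites found in all 5 other activated Arf lists it lacked 2, both at Sesn1, and over all sites such a share was 30.9%. Mean covered length at Sesn1 was 1024 ± 890 bp after doxorubicin and 0 bp after H2O (SD, n = 3 each; exact permutation p = 0.4, smallest possible 0.1).

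Sesn2, by contrast, had a site that was bound in nearly every Arf list. Site 3, at 132070996 to 132071964, had a peak in 21 of 26 lists, all 10 activated and 11 of the 12 other Arf lists, and in no EtOH list. Peak cover was 901, 644, 841 and 450 bp in OHT tumours 1 to 4. It was 796, 969 and 848 bp after doxorubicin against 609, 441 and 55 bp after H2O in tumours 5, 6 and 7. With (-)-Nutlin it was 655, 598 and 757 bp, against 596, 335 and 0 bp with (+)-Nutlin, 526, 113 and 108 bp with DMSO and 549, 526 and 113 bp untreated. Each activated Arf list thus exceeded the reference lists of its own tumour at this site.

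Sesn2 sites 1 and 2, at 132065342 to 132066064 and 132066234 to 132066782, lay 169 bp apart, each with a peak in 7 activated lists and in no other list. Site 1 was bound in all 6 doxorubicin and (-)-Nutlin lists, with 645, 615 and 706 bp after doxorubicin and 521, 558 and 523 bp after (-)-Nutlin in tumours 5, 6 and 7. In KI tumours it was bound after OHT in tumour 1 alone, at 445 bp. Site 2 showed the other pattern in KI tumours, with 473, 362 and 428 bp in OHT tumours 2, 3 and 4 and none in tumour 1, and among Arf lists it had 449 and 405 bp in doxorubicin tumours 5 and 7 and 382 and 357 bp in (-)-Nutlin tumours 5 and 6. Site 4 was in 4 activated lists, with 308 to 413 bp.

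**Figure D3:**
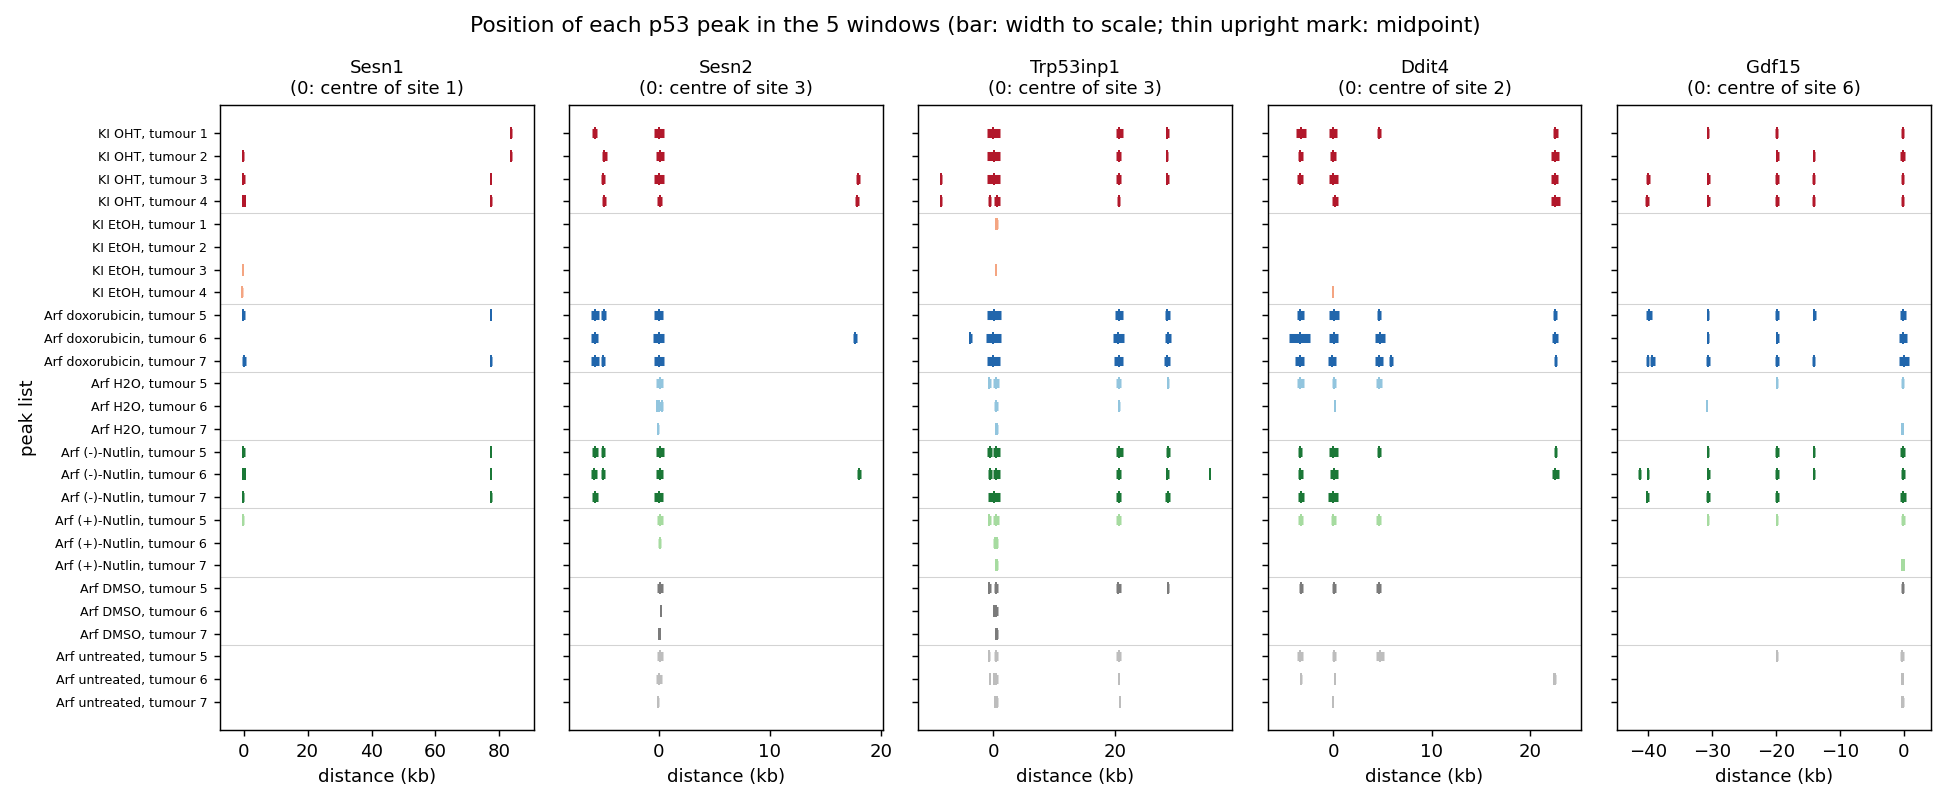
Position of each p53 peak in the 5 windows for the 26 lists, as distance in kb from the centre of 1 site per window; bars show widths to scale and thin upright marks the midpoints. In the Sesn2 panel the site at 0 is marked in Arf references while the pair to its left is marked in activated lists.

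Ddit4 had 3 sites that tumour 5 held in every list, and a separate one bound after activation. Site 2, at 59414090 to 59415169, had a peak in all 10 activated lists and in 8 of 16 others. It covered 824, 623, 859 and 685 bp in OHT tumours 1 to 4, against 70 bp in the EtOH list of tumour 4 and none in the other 3. After doxorubicin it covered 1023, 975 and 843 bp, against 418, 60 and 0 bp with H2O, and after (-)-Nutlin 905, 771 and 984 bp, against 511, 0 and 0 bp with (+)-Nutlin and 414, 0 and 0 bp with DMSO. Untreated cells of tumours 5, 6 and 7 had 362, 67 and 54 bp. The activated lists, all above 600 bp, did not overlap the references.

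Ddit4 site 1, at 59410137 to 59412257, was in 9 activated lists, missing from OHT tumour 4, and in 5 others. Its peak of 2121 bp in doxorubicin tumour 6 stood far above the 667 and 938 bp of doxorubicin tumours 5 and 7, the 402, 562 and 607 bp after (-)-Nutlin and the 974, 530 and 598 bp in OHT tumours 1, 2 and 3. The other lists with a peak were 707 bp with H2O, 499 bp with (+)-Nutlin, 373 bp with DMSO and 546 bp untreated, all in tumour 5, and 128 bp in untreated tumour 6. In tumour 5 the H2O peak was thus wider than those after doxorubicin and (-)-Nutlin. Site 5, at 59436719 to 59437635, was in 9 activated lists and in 1 other, untreated tumour 6, with 115 bp in 2 peaks. OHT lists had 459, 826, 698 and 917 bp there, doxorubicin lists 417, 624 and 380 bp, and (-)-Nutlin lists 349, 735 and 0 bp. At site 5 the OHT peaks of tumours 2 and 4 thus exceeded all those of Arf tumours.

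Ddit4 site 3, at 59418879 to 59419902, had less cover in the activated lists of tumour 5 than in its other lists. Its peaks there were 425 bp after doxorubicin and 331 bp after (-)-Nutlin, against 453 bp with (+)-Nutlin, 626 bp with H2O, 515 bp with DMSO and 758 bp untreated. Both activated lists were the narrowest of the 6, as at 4.5% of the 1266 sites of the genome that all 6 lists of tumour 5 held. In tumours 6 and 7 the site was present after doxorubicin alone, at 998 and 800 bp. OHT tumour 1 had 388 bp and no other KI list had a peak. Ddit4 site 4 was in 1 list, that of doxorubicin tumour 7, with 423 bp.

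Trp53inp1 had the most frequently bound site of the windows. Site 3, at 11081648 to 11084107, was in 24 of 26 lists and missing from the EtOH lists of tumours 2 and 4. Its cover was 2142, 2061, 2094 and 1487 bp in OHT tumours 1 to 4, against 321 and 76 bp in the EtOH lists of tumours 1 and 3. Doxorubicin lists had 2195, 2460 and 2246 bp, against 1533, 602 and 339 bp with H2O in tumours 5, 6 and 7. After (-)-Nutlin it was 1849, 1852 and 2072 bp, against 1495, 676 and 302 bp with (+)-Nutlin, 1181, 513 and 383 bp with DMSO and 1091, 853 and 353 bp untreated. The lowest Arf activated value, 1849 bp, lay above the highest reference, 1533 bp. Within their own lists the widest peak at site 3 ranked at the 97.6th to 100.0th percentile of width in the activated lists. It was 1 peak in the doxorubicin lists, in OHT tumours 1 to 3 and in (-)-Nutlin tumour 7, and 2 peaks in the other 3 activated lists.

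Site 4 of Trp53inp1, 18.4 kb further along at 11102533 to 11104328, was in all 10 activated lists, in 7 other Arf lists and in no EtOH list. OHT lists had 1077, 737, 782 and 452 bp. Doxorubicin lists had 1331, 1796 and 1381 bp, against 696, 123 and 0 bp with H2O. (-)-Nutlin lists had 1057, 723 and 885 bp, against 775, 0 and 0 bp with (+)-Nutlin, 857, 0 and 0 bp with DMSO and 734, 81 and 79 bp untreated. Site 5, at 11110930 to 11112014, was in 9 activated lists and, among the others, in the H2O and DMSO lists of tumour 5 with 440 and 394 bp. It covered 538, 409 and 451 bp in OHT tumours 1, 2 and 3, 812, 992 and 1071 bp after doxorubicin and 644, 473 and 686 bp after (-)-Nutlin. Sites 1, 2 and 6 were in 2, 1 and 1 activated lists, with 285 to 383 bp.

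Gdf15 had 2 sites in all 10 activated lists, with site 5 between them. Site 6, at 73172837 to 73174456, was also in 8 of the 16 others. OHT lists had 522, 754, 512 and 422 bp, and EtOH lists none. Doxorubicin lists had 965, 1256 and 1551 bp, against 533, 0 and 115 bp with H2O. (-)-Nutlin lists had 743, 637 and 965 bp, against 600, 0 and 341 bp with (+)-Nutlin, 485, 0 and 0 bp with DMSO and 576, 183 and 250 bp untreated. Activated Arf lists thus did not overlap Arf references at site 6, although 637 bp in (-)-Nutlin tumour 6 was close to 600 bp in (+)-Nutlin tumour 5.

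At Gdf15 site 4, 73153542 to 73154173, OHT lists had 365, 493, 624 and 625 bp, doxorubicin lists 585, 417 and 607 bp and (-)-Nutlin lists 520, 504 and 569 bp. The 3 other lists with a peak were all of tumour 5, with 415 bp after (+)-Nutlin, 387 bp after H2O and 358 bp untreated. Site 3, at 73142701 to 73143306, was in 9 activated lists, missing from OHT tumour 2, and in 2 others, with 75 bp in H2O tumour 6 and 372 bp in (+)-Nutlin tumour 5. Its peaks were 412, 466 and 467 bp in OHT tumours 1, 3 and 4, 424, 351 and 606 bp after doxorubicin and 341, 436 and 526 bp after (-)-Nutlin, so that doxorubicin tumour 6 and (-)-Nutlin tumour 5 lay below that (+)-Nutlin peak. Site 2, at 73133172 to 73134642, was in 6 activated lists and no other, with 1014 and 1294 bp in doxorubicin tumours 5 and 7, 532 and 556 bp in OHT tumours 3 and 4, and 331 and 444 bp in (-)-Nutlin tumours 6 and 7. Site 5, at 73159327 to 73159889, was in 7 activated lists and no other. It had 460, 502 and 455 bp in OHT tumours 2, 3 and 4. Its other peaks were 439 and 461 bp in doxorubicin tumours 5 and 7, and 338 and 351 bp in (-)-Nutlin tumours 5 and 6. Gdf15 site 1 was in 1 list, that of (-)-Nutlin tumour 6, with 415 bp.

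Doxorubicin was set against its solvent in each Arf tumour. The rule for gain was met at 2 of 20 window sites, Sesn2 site 1 and Ddit4 site 5, against 18.3% of all sites. Mean cover was 4884 ± 658 bp after doxorubicin and 1244 ± 1249 bp after H2O at Trp53inp1 (SD, n = 3 each), 3545 ± 1102 against 604 ± 994 bp at Ddit4, 3323 ± 1251 against 370 ± 477 bp at Gdf15, and 1948 ± 53 against 368 ± 284 bp at Sesn2. The groups did not overlap at these 4 loci, as in 40.9% of 50 kb tiles, and at 10 of the 20 sites, against 28.8% of all sites. The exact permutation test gave p = 0.1 at each of the 4, and 3 against 3 lists cannot give less. In tumour 5, where both lists are wide, doxorubicin minus H2O was 1669 bp at Trp53inp1, 781 bp at Ddit4, 2507 bp at Gdf15 and 1281 bp at Sesn2, against mean differences of 3639, 2941, 2953 and 1579 bp over the 3 tumours. Paired 95% intervals, which take the differences between tumours as normal, were 803 to 2355 bp at Sesn2 and spanned 0 at Trp53inp1 (-651 to 7929 bp), Ddit4 (-1968 to 7850 bp) and Gdf15 (-244 to 6150 bp).

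The Nutlins are mirror images, so dose, time and composition were matched. With (-)-Nutlin all 5 windows had more cover than with (+)-Nutlin in 3 of 3 tumours, by 2426 bp at Trp53inp1, 1797 bp at Gdf15, 1394 bp at Ddit4, 1262 bp at Sesn2 and 1050 bp at Sesn1 on average. In tumour 5, with wide lists for both, the differences were 1280, 555, 524, 962 and 843 bp at these loci in the same order. The groups did not overlap at any of the 5, as in 42.6% of tiles, and the exact permutation test gave p = 0.1 at each, the least it can give. Paired 95% intervals were above 0 at Sesn1 (604 to 1495 bp) and Sesn2 (539 to 1984 bp), and spanned 0 at Trp53inp1 (-182 to 5034 bp), Ddit4 (-570 to 3358 bp) and Gdf15 (-950 to 4544 bp). Gained sites were 3 of 20, Sesn1 site 2, Sesn2 site 1 and Trp53inp1 site 5, against 23.7% of all sites, and 0 were lost (0.00797%). At 9 of the 20 sites cover did not overlap, against 34.4% of all sites. Against DMSO, (-)-Nutlin gained 5 of 20, Sesn1 sites 1 and 2, Sesn2 site 1 and Gdf15 sites 3 and 4, against 28.0% of all sites, and lost 0 (0.00797%). Its cover stood above DMSO without overlap at all 5 loci, as in 45.5% of tiles, and at 11 of the 20 sites, against 37.0% of all sites. Its mean differences from DMSO were 2399 bp at Trp53inp1, 2212 bp at Gdf15, 1448 bp at Ddit4, 1323 bp at Sesn2 and 1243 bp at Sesn1. In tumour 5 they were 1118, 1457, 685, 1032 and 1422 bp. For the means, paired 95% intervals were above 0 at Sesn1 (856 to 1629 bp), Sesn2 (356 to 2290 bp) and Gdf15 (574 to 3849 bp). They spanned 0 at Trp53inp1 (-411 to 5210 bp) and Ddit4 (-297 to 3193 bp). The exact permutation p was again 0.1 at each locus.

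Between (+)-Nutlin and DMSO 0 of 11 window sites were gained or lost (0.0% of all sites were gained). Cover with (+)-Nutlin minus DMSO was 414 bp at Gdf15 (paired 95% interval -717 to 1546 bp), 193 bp at Sesn1 (-637 to 1023 bp), 61 bp at Sesn2 (-349 to 472 bp), 54 bp at Ddit4 (-177 to 285 bp) and -27 bp at Trp53inp1 (-447 to 394 bp), with exact permutation p of 0.7 or more. These intervals are wide, and the list of tumour 5 alone supplied the (+)-Nutlin peaks at Sesn1 site 1 and at Gdf15 sites 3 and 4. The comparisons with DMSO and with (+)-Nutlin share their (-)-Nutlin lists.

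Doxorubicin and (-)-Nutlin, both given for 3 h to the same tumours, act on p53 by different routes and their doses are not equivalent. Of 22 window sites, 0 were gained or lost between them (2.62% of all sites were gained and 0.217% lost). Cover over whole windows separated the groups at Sesn2, Trp53inp1 and Ddit4, as in 16.9% of tiles, and at 7 of the 22 sites, against 12.9% of all sites. At the 10 window sites that all 6 lists held, the doxorubicin lists were wider without overlap at 6, Sesn2 sites 1 and 3, Trp53inp1 sites 3 to 5 and Ddit4 site 1, against 34.1% of 3206 such sites in the genome. The median ratio of mean cover was 1.27 at the 10 sites and 1.18 at all 3206. The ratio was 2.37 at Ddit4 site 1, where 1242 ± 773 bp after doxorubicin stood against 524 ± 108 bp after (-)-Nutlin (SD, n = 3 each), 1.69 at Trp53inp1 site 4 (1503 ± 255 against 888 ± 167 bp) and 1.01 at Gdf15 site 4 (536 ± 104 against 531 ± 34 bp). Each exact permutation p at the 6 sites was 0.1, the smallest possible. Over the Trp53inp1 window the lists differed by 1375 bp as deposited and by -133 bp with every peak reset to 200 bp.

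**Figure D4:**
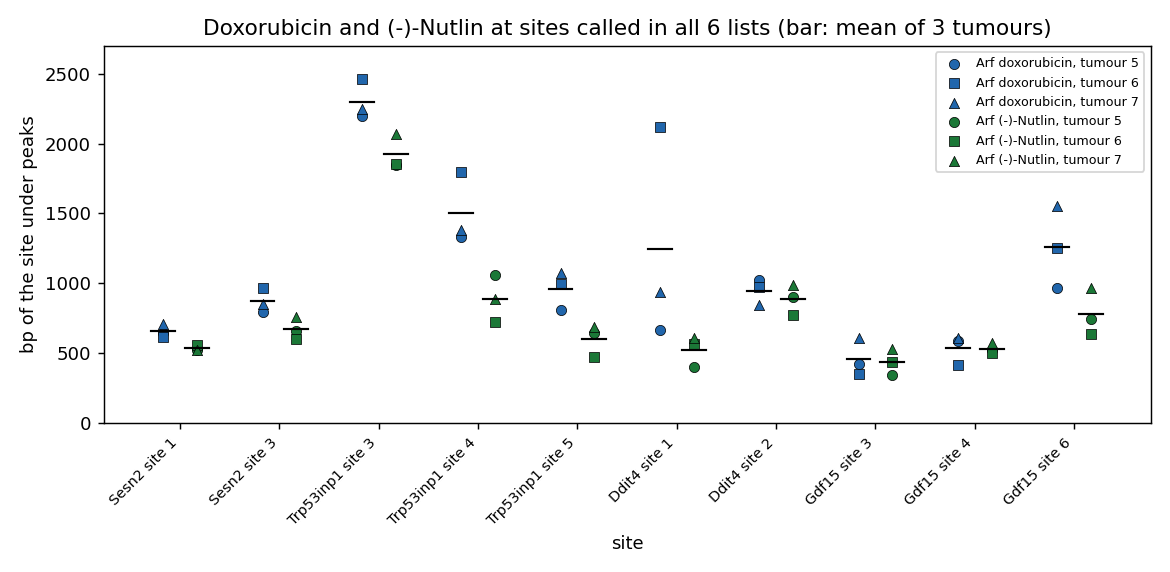
Covered base pairs at the 10 window sites present in all 6 doxorubicin and (-)-Nutlin lists, with 1 point per list. Trp53inp1 sites 3 to 5, Sesn2 sites 1 and 3 and Ddit4 site 1 separate with doxorubicin higher, and Ddit4 site 2 and Gdf15 sites 3, 4 and 6 overlap.

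All 6 lists of tumour 5 are of the wide kind, so its values compare treatments without the change of kind, with 1 list each and no test. Of 17 window sites in any of its lists, 5 were in both activated lists and none of the other 4 (29.4%, against 45% over all sites), namely Sesn1 site 2, Sesn2 sites 1 and 2, Ddit4 site 5 and Gdf15 site 5. A further 7 sites (41.2%, against 1266 of 12629 over all sites) were in all 6 lists. At 5 of those 7 both activated lists had more cover than the other 4, as at 63.3% of such sites in the genome. They were Sesn2 site 3, Trp53inp1 sites 3 and 4, Ddit4 site 2 and Gdf15 site 6. The other 2 were Ddit4 site 3, lower in both activated lists, and Ddit4 site 1, where the order was mixed.

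**Figure D5:**
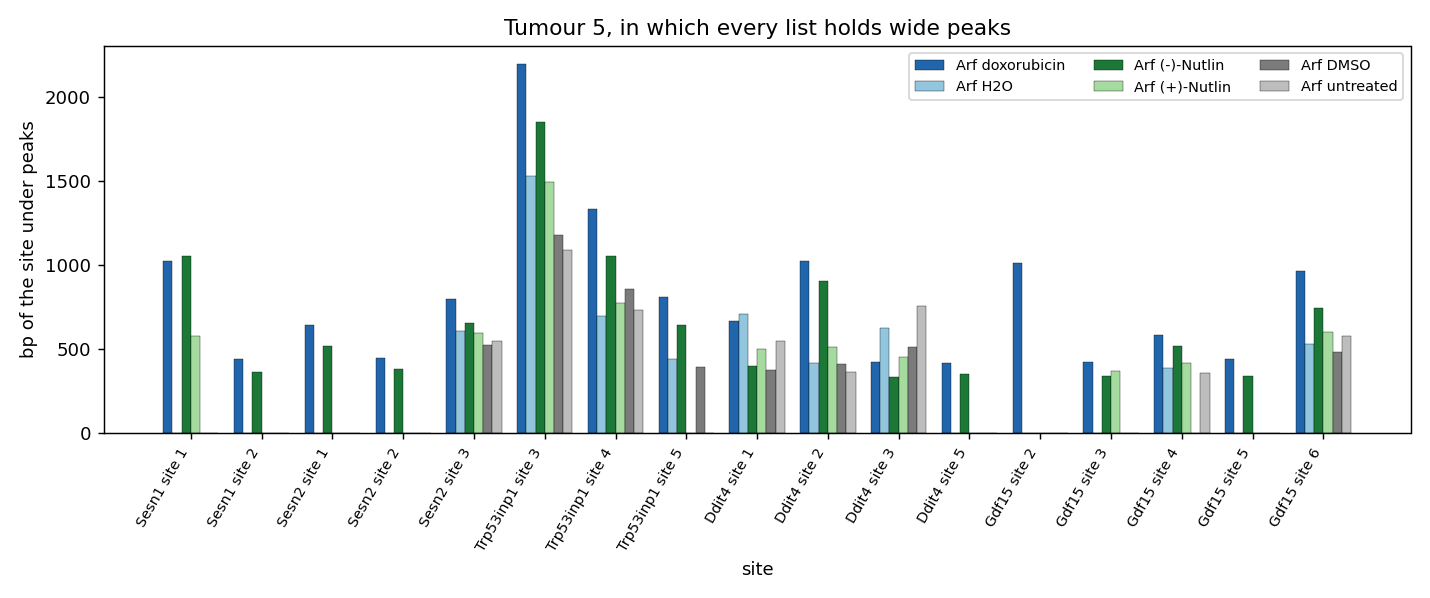
Covered base pairs at the window sites of tumour 5 in its 6 lists, all of the wide kind. Trp53inp1 site 3 is highest in each list, and Ddit4 site 3 is the site at which both activated lists are lowest.

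Binding without activation was compared between untreated Arf cells and KI cells with EtOH. A peak in all 3 untreated lists and no EtOH list was found at 3 of 10 window sites, Sesn2 site 3, Trp53inp1 site 4 and Gdf15 site 6, against 9.8% of all sites. Cover did not overlap at 4 of the 10 sites, against 11.3% of all sites. Mean cover was 1064 ± 705 bp untreated (n = 3) and 99 ± 152 bp with EtOH (n = 4) at Trp53inp1, 396 ± 245 against 0 bp at Sesn2 and 456 ± 416 against 0 bp at Gdf15 (SD; exact permutation p = 0.0286 each, the smallest possible, with 12.2% of tiles separated). With only peaks of at least 457 bp these calls were lost, with differences of 699 bp at Trp53inp1, 358 bp at Sesn2 and 192 bp at Gdf15 (exact permutation p = 0.143, 0.143 and 0.429). They were also lost with the untreated lists alone reduced at Sesn2 (213 bp) and Gdf15 (83 bp), and with peaks of 200 bp at Trp53inp1 (517 bp, exact permutation p = 0.0571). Without tumour 5, the wide list among the untreated, the differences were 584 bp at Trp53inp1, 216 bp at Gdf15 and 164 bp at Ddit4, against 964, 456 and 659 bp with it. At Ddit4 it was 677 ± 866 against 18 ± 35 bp (exact permutation p = 0.0571), and at Sesn1 no untreated list had a peak against 39 ± 46 bp with EtOH (exact permutation p = 0.429). Between solvents and untreated cells 0 window sites were gained or lost, of 11 for H2O and 10 for DMSO (0.0279% and 0.0303% of all sites were gained, 0.0279% and 0.121% lost), and each exact permutation p on covered length was 0.5 or more. Within tumours 5, 6 and 7, cover with DMSO minus untreated was -23, -413 and -5 bp at Sesn2, -364, -310 and -54 bp at Ddit4 and -449, -183 and -250 bp at Gdf15, and H2O minus untreated was -14, -108 and -135 bp at Gdf15. Solvent was lower in 3 of 3 tumours in each of these, with p = 0.25 by exact permutation within tumours, the smallest possible. At Trp53inp1 both solvents were higher in tumour 5 and lower in tumours 6 and 7.

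Whether loci responded differently in KI and Arf tumours was tested on the difference per tumour, OHT minus EtOH against doxorubicin minus H2O or (-)-Nutlin minus DMSO. The lowest exact permutation p of the 10 tests was 0.229, at Ddit4, where (-)-Nutlin minus DMSO averaged 1448 ± 703 bp (n = 3) and OHT minus EtOH 2078 ± 460 bp (n = 4), and 0.858 after Benjamini-Hochberg adjustment.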

How the data were processed

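Chromatin of 26 samples was immunoprecipitated with an antibody against p53 and sequenced, and 1 peak list per sample was analysed. The 7 input libraries have no list and were left out. The submitters' processing notes name BWA 0.6.2, SAMtools and the mm9 build. Which program called the peaks, with what cutoff and whether against input, is not given in the sources used here. Read depth is unknown, so precision rests on the number of lists. As deposited, a list has 3 columns (chromosome, start, end) and no score; no peak was removed.

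Positions are counted from 1. Computed here were sites (peaks of all lists sharing at least 1 bp), presence per list, covered base pairs per site and window, and the percentile of width within a list. Fisher's exact test was run at every site in the genome with a peak in at least 1 compared list, with Benjamini-Hochberg adjustment and a threshold of 0.05. In a comparison, shares of all sites are shares of those sites. Covered length was tested by two-sided exact permutation over lists in 50 tests (5 windows, 10 comparisons), whose p-values are not adjusted. Shares of all sites or of 50 kb tiles are given as background. All 5 loci are named. A site was described in full when at least 5 of the 10 activated lists or any other list held it. Groups and tumour numbers were taken from the sample labels. A number marks cells of the same tumour, so it pairs samples. Deviations of same-tumour lists correlated by 0.15 on average in Arf tumours (other tumours, -0.07) and by -0.01 in KI tumours (0.0). The loci, windows and tests were chosen with earlier results of these data known.

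Gene names and neighbours came from the RefSeq table of GRCm38.p6, and promoter sequences from RefSeq. Distances to start sites, sequences under peaks and further pathway genes were not analysed here. Alternatives were peaks of at least 457 bp, peaks reset to 200 bp, lists reduced to their widest peaks and only peaks or sites wholly inside the window. Further ones were 1 list allowed to differ, a threshold of 0.01, permutation within tumours and leaving out a tumour. Reduction cut only the lists of the first group of a comparison, to the peak number of its smallest list. The second group was left whole, so this setting took peaks from 1 side only. Tumour 5 alone was added after seeing the data. The code was tested on simulated lists. Python 3.11.15 with numpy 2.4.6, pandas 2.3.3, scipy 1.17.1 and matplotlib 3.10.9 was used.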

Additional observations from a re-analysis of the deposited data

Results flagged for a closer look

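Of the 4 KI EtOH lists, that of tumour 4 covered 70 bp in the Ddit4 window, by 1 peak at site 2, and the other 3 covered 0 bp. It was singled out as a list far from the others of its group by Dixon's criterion. With the other 3 lists tied at 0 any value above 0 meets that criterion, so the usual rate of chance flags does not hold here.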

How the results depend on the processing

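Counts of window sites depended on the rule. Where lists were reduced, only those of the first-named group were cut, and the other group was left whole. Shares of all sites are given for the main rule, for some counts with a tumour left out and for the 5 sites by presence in tumour 5. The other counts have no such share beside them, so their changes cannot be read as particular to these loci. For OHT against EtOH 5 sites were gained, but 3 with peaks of at least 457 bp, 2 with lists reduced to their widest peaks, 11 with 1 list of each group allowed to differ, and 5 to 8 with a tumour left out (8 without tumour 4, where 14.1% of all sites were gained). For doxorubicin against H2O the count of 2 became 1 with reduced lists, 12 with 1 list allowed to differ, 8 in tumour 5 alone, and 2 to 8 with a tumour left out (6 without tumour 5 and 8 without tumour 6, with 38.4% and 44.2% of all sites). For (-)-Nutlin against DMSO the count of 5 became 3, 14, 8 and 5 to 11 in the same order (11 without tumour 5 and 8 without tumour 7, with 40.9% and 54.8%). For (-)-Nutlin against (+)-Nutlin the count of 3 became 13 with 1 list allowed to differ, 6 in tumour 5 and 3 to 10 with a tumour left out (10 without tumour 5 and 6 without tumour 7, with 40.3% and 49.5%). For (+)-Nutlin against DMSO 0 became 1 with 1 list allowed to differ and 3 in tumour 5, where 1 was lost. For doxorubicin against (-)-Nutlin 0 became 1 under both, and 0 to 1 with a tumour left out (1 without tumour 5, with 10.3%). H2O and DMSO each gained 1 site over untreated cells in tumour 5. DMSO lost 4 with 1 list allowed to differ, 3 without tumour 5, 2 with reduced lists and 1 in tumour 5, and H2O lost 1 with reduced lists and 1 with 1 list allowed to differ. For untreated Arf cells against EtOH the count of 3 became 0 with peaks of at least 457 bp, 0 with reduced lists, 5 with 1 list allowed to differ, and 3 to 4 with a tumour left out. The 10 sites more often bound in doxorubicin and (-)-Nutlin lists became 3 with reduced lists, 4 at an adjusted p under 0.01, 5 by presence in tumour 5, 1 to 3 with a tumour left out, and 11 with the tumour as a replicate block.

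Of the alternatives for covered length, 341 kept direction and call, 57 kept direction but lost the call and 22 changed sign. Comparisons of 3 against 3 lists cannot give an exact permutation p below 0.1, so they held no call to lose. Their alternatives are among the 341 whenever the sign did not change. Also among the 341, once for each window and comparison, is the use of only peaks wholly inside the window. Every site lay inside its window, so that setting could not change a value. The 341 therefore do not measure how stable the calls were. Of the 57, 41 left out a tumour, where fewer lists raise the smallest p, and 5 were the replicate block for OHT against EtOH (exact permutation p = 0.125 at each locus). Otherwise only the pooled doxorubicin and (-)-Nutlin lists had calls that the block could change, and these were kept at each locus. The sign changed only in comparisons of 3 against 3 lists, where no test could pass. For (+)-Nutlin minus DMSO, Sesn2 (61 bp) was -107 with peaks of 200 bp, -137 with reduced lists and -19 (without tumour 6) to 146 with a tumour left out. Trp53inp1 (-27 bp) was 246 with peaks of at least 457 bp, 41 without tumour 5, 0 without tumour 7 and -122 without tumour 6. Ddit4 (54 bp) and Gdf15 (414 bp) were -434 and -48 with reduced lists. In that setting (+)-Nutlin lists were cut and DMSO lists were not, so the values are not like for like. For doxorubicin minus (-)-Nutlin, Sesn1 (-218 bp) was -560 to 254 (without tumour 6) with a tumour left out, and Trp53inp1 (1375 bp) -133 with peaks of 200 bp. For H2O minus untreated, Sesn2 (-28 bp) was 133 with peaks of 200 bp and -72 to 1 (without tumour 6) with a tumour left out, Trp53inp1 (181 bp) was -133 with peaks of 200 bp, -156 with reduced lists and -151 (without tumour 5) to 376 with a tumour left out, and Ddit4 (-73 bp) was 10 with peaks of at least 457 bp and -152 to 16 (without tumour 6). For DMSO minus untreated, Sesn2 (-147 bp) was 40 with peaks of 200 bp, and Trp53inp1 (46 bp) was -7 with peaks of at least 457 bp, -133 with peaks of 200 bp, -226 with reduced lists and -235 (without tumour 5) to 279 with a tumour left out. The cause was not tested. Read depth is unknown, so a missing peak does not show that a site was unbound.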
